A study of Mus musculus with 12 samples.

Results

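Small leucine-rich proteoglycans are secreted matrix proteins that bind collagen fibrils, and Mgp (matrix Gla protein) is a small secreted inhibitor of calcification. The transcripts of Dcn, Bgn, Aspn, Fmod, Lum, Prelp, Ogn and Mgp were followed in mouse C2C12 myoblasts, matched by name in the authors' tables. Of these 8 genes, 7 were listed for both genotypes, out of 13768 genes listed in all. Lum (lumican) was among the genes of neither table and was not analysed here. C2C12 is an established myoblast line that can differentiate into myotubes. The groups were wild-type cells and Ddx27-/- cells, each as total cellular RNA and as RNA of purified polysomes, the mRNAs loaded with ribosomes. Ddx27 encodes a nucleolar RNA helicase. The labels record no drug, differentiation step, clone or separate culture, so each p-value measures only the spread between these samples, which may be technical. They list 12 samples, and 11 libraries had values: 3 of total and 3 of polysomal RNA from the wild type, and 2 of total and 3 of polysomal RNA from the knockout. Knockout libraries are numbered by table column.

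The family is sorted by sequence. Dcn (decorin), Bgn (biglycan) and Aspn (asporin) form class I, Fmod (fibromodulin), Lum and Prelp form class II, and Ogn (osteoglycin, or mimecan) belongs to class III. Their leucine-rich repeats bind collagens and growth factors of the TGF-beta family, and several carry chondroitin, dermatan or keratan sulfate chains. In skeletal muscle, decorin and biglycan are known components of the matrix around muscle fibres, and decorin binds myostatin. Mgp is no proteoglycan: it becomes active through vitamin K-dependent carboxylation and also binds bone morphogenetic proteins.

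Library checks come first. Libraries held 13683674 to 27347878 reads in listed genes, and a value of 0 allows up to 3 reads, or 0.0989 to 0.257 normalised read counts, for counting error only. Ddx27 was 139 to 150 normalised read counts in wild-type total RNA and 39.7 to 45.0 in knockout total RNA, so the targeted transcript was lower but present. Myod1, a myogenic regulator and myoblast marker, was 137 to 177 in wild-type total RNA and 0.363 to 1.13 in knockout total RNA. In knockout polysomal RNA it was 0 to 0.0861. Myf5, another myogenic regulator, went the other way in total RNA, from 62.9 ± 6.69 (SD, n = 3) to 114.7 ± 11.2 (SD, n = 2), with a log2 fold change of 0.98 (limma adjusted p = 0.0367). Of 8 tested myoblast markers, 1 was higher and 4 were lower in knockout total RNA, beside 4.71% and 5.78% of all genes. Myod1 could enter this test only through wild-type libraries and adds no support to that count. In these bulk samples fewer cells of a type and less RNA per cell cannot be told apart. Levels and sums in this paragraph are deposited values, which the authors scaled separately for each genotype. Folds between genotypes use the common scale described below. The summed level of 9 myoblast markers ran from 3862 to 5185 in wild-type total RNA. In knockout total RNA, where 8 of the 9 were listed, it ran from 1636 to 1766. In polysomal RNA it was 1241 to 1351 and 862 to 1083. Des alone had means of 1990 and 544 in wild-type and knockout total RNA. Fibroblast markers other than the members summed to 150 to 173 (6 of 9 listed) and 75.3 to 84.7 (3 of 9 listed) in total RNA. In polysomal RNA they summed to 44.4 to 88.2 and 97.8 to 158, with Thy1, Tcf21 and Dpt listed in neither genotype. Ly6a alone had means of 127 and 68.9 in wild-type and knockout total RNA. Markers of leukocytes summed to at most 10 normalised read counts in any library, with Ptprc unlisted. Of 5 tendon markers Scx was listed, at 96.5 to 438. Of 9 cartilage and bone markers 2 were listed in wild-type cells and 3 in knockout cells, among them Sox9 (26.8 to 112) and Runx2 (41.2 to 110), while Col2a1 and Acan were unlisted. Of 8 vascular markers 3 and 2 were listed, including the smooth muscle genes Acta2 (1567 to 5090) and Tagln (111 to 819), without the endothelial Pecam1 and Cdh5. Sox9 was lower in knockout total RNA (log2 fold change -1.35, adjusted p = 0.00995). Tagln was higher in wild-type polysomal than total RNA (1.82, adjusted p = 0.00406) and lower in knockout than wild-type polysomal RNA (-2.03, adjusted p = 0.00158). The part of these markers in the results was not tested. Reads of 4 gene models that collect ribosomal RNA made up 14.5% of wild-type polysomal replicate 2 and 23.1% and 32.7% of knockout polysomal replicates 1 and 2. These 3 libraries stand apart from the rest, which held at most 5.91%, and values without them are given where a call or a sign changed.

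Several members lie side by side. In RefSeq's annotation of the mouse build GRCm38.p6 (mm10), Aspn (chr13:49544443-49567565) and Ogn (chr13:49608015-49624501) are 40449 bases apart, with the family gene Omd (osteomodulin) between them. Prelp (chr1:133910304-133930102) and Fmod (chr1:134037254-134048280) are 107151 bases apart. Dcn (chr10:97479500-97518163) neighbours Lum (chr10:97565501-97572703), while Bgn (chrX:73483601-73495936) and Mgp (chr6:136872435-136875823) have no member near them. The gene model of Cenpp, a centromere protein gene, spans the Aspn and Ogn models. The sources used here do not say whether reads were counted by strand, so reads of Cenpp and of these 2 genes may not be fully separated. The mean level of Cenpp was 6.45 and 9.41 normalised read counts in wild-type total and polysomal RNA and 6.97 and 12.7 in the knockout, against which the low Aspn values below have to be read.

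Start-site sequences from RefSeq were matched for 5 of the 8 genes (Bgn, Aspn, Fmod, Prelp and Ogn). The 250 bases before the start are shown for all 5, because Ogn, Aspn, Fmod and Prelp rose in knockout polysomal RNA and Bgn did not pass that test. Capitals mark the E-box letters CANNTG, the core that Myod1 and other basic helix-loop-helix factors read, which are the same on both strands. All run 5' to 3' in GRCm38.p6. On the plus strand, Ogn is chr13:49607765-49608014, Aspn chr13:49544193-49544442, Fmod chr1:134037004-134037253 and Bgn chrX:73483351-73483600. Prelp is chr1:133921402-133921651 on the minus strand, a start that lies inside the gene model given above.
Ogn: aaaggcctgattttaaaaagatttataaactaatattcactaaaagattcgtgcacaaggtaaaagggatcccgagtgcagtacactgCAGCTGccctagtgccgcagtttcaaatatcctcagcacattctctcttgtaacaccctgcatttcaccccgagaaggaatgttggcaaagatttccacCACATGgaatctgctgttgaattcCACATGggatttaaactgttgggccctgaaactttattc
Aspn: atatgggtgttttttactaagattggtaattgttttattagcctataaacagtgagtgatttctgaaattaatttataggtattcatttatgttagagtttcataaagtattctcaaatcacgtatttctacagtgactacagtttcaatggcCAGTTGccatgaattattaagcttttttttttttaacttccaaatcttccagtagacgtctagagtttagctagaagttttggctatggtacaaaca
Fmod: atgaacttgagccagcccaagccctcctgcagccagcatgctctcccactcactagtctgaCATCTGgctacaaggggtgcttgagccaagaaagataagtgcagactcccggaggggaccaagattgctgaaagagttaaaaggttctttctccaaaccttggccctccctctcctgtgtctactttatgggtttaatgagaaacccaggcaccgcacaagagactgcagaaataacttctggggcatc
Prelp: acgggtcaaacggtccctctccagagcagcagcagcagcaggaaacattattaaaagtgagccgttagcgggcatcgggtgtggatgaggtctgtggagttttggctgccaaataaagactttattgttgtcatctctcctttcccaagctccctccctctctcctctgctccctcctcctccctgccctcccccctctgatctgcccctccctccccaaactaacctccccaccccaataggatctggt
Bgn: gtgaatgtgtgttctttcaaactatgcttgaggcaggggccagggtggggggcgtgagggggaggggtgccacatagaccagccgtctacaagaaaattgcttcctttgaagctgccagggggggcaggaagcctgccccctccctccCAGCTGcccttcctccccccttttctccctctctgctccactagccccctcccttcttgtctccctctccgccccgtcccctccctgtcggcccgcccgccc
The Ogn sequence held 3 E-boxes, 162, 63 and 39 bases before the start. Aspn, Fmod and Bgn held 1 each, at 97, 189 and 102 bases, and Prelp held none. CANNTG is common: 66.2% of all 32851 promoters of the same length held it. Ogn and Aspn each held the letters TATAAA 2 times over both strands, at 207 and 178 bases in Aspn and as overlapping copies at 229 and 227 bases in Ogn. Of all promoters, 12.4% held TATAAA. Base composition also differed, from 30% GC in Aspn and 42% in Ogn to 51.2% in Fmod, 55.6% in Prelp and 64.4% in Bgn. The Bgn sequence held the GC-box letters GGGCGG 3 times within 34 bases of the start, all on the opposite strand, against 32.7% of promoters holding it on either strand. The AP-1 letters TGANTCA were in none of the 5 sequences and in 6.75% of all promoters.

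Levels were compared between genes per kilobase of gene length, in normalised read counts. In wild-type total RNA the order was Mgp, Bgn, Ogn, Dcn, Fmod, Aspn and Prelp. Mgp stood at 1561 ± 120 per kilobase (SD, n = 3) and made up 71.8% of the members' sum, and Bgn stood at 511 ± 47.0 (23.5%). Ogn followed at 81.0 ± 14.6, and Dcn (9.17 ± 3.21) and Fmod (8.77 ± 4.16) overlapped. Aspn (1.65 ± 0.0953) and Prelp (0.881 ± 0.0603) were the lowest, each separate from its neighbour. Knockout total RNA began with the same 3 genes, with Mgp at 4265 ± 2225 per kilobase (SD, n = 2) and 85.1% of the sum. In polysomal RNA the first place belonged to Bgn. It made up 55.4% of the wild-type sum at 445 ± 106 per kilobase and overlapped Mgp (325 ± 167, 40.5%). In knockout polysomal RNA Bgn (518 ± 156) overlapped Mgp (331 ± 173) and Mgp overlapped Ogn (192 ± 81.8), which was separate from Fmod. Ogn took 18% of the sum against 3.28% in wild-type polysomal RNA.

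**Figure D1:**
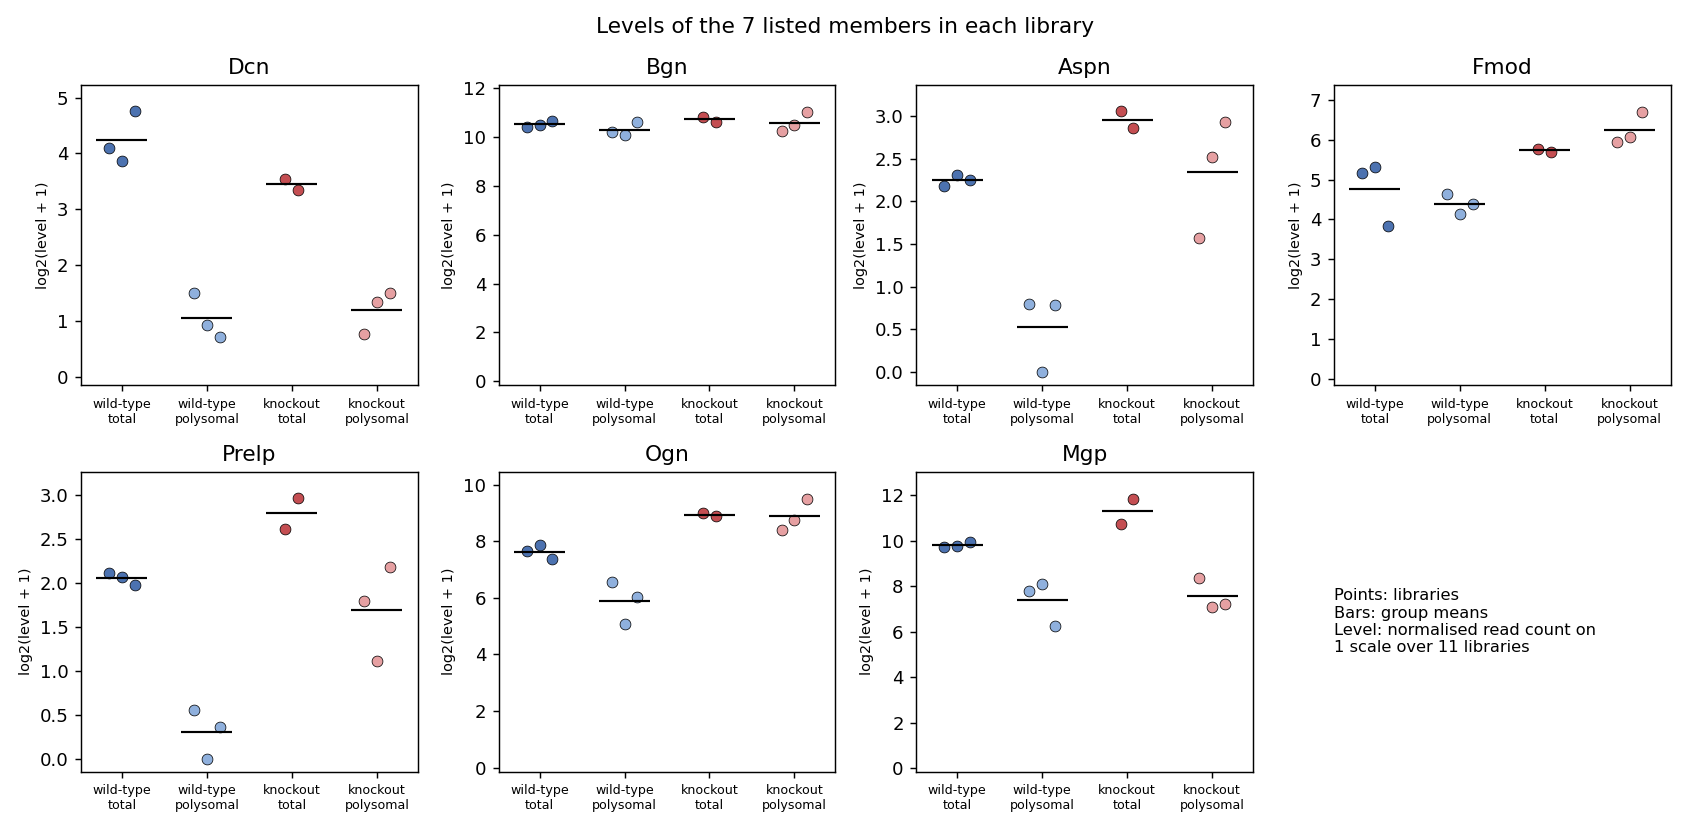
Log2 of the normalised read count plus 1, on 1 scale over the 11 libraries, for the 7 listed genes. Each panel is 1 gene with its own vertical axis, each point is 1 library and each bar a group mean. Dcn and Mgp are low in both polysomal groups, Ogn, Fmod, Aspn and Prelp are higher in knockout than in wild-type polysomal RNA, and Bgn overlaps throughout.

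The first question was which of these mRNAs were under-represented in polysomes of wild-type cells. Dcn, Mgp, Prelp, Ogn and Aspn were lower in the polysomal libraries, while Bgn and Fmod did not pass the test. Thus 5 of 7 tested members fell, beside a background of 13.8% of 12380 genes called lower and 8.89% called higher. The median log2 fold change of the 7 was -1.73, against -0.02 over all genes tested. Aspn and Prelp reached a value of 1 only in total RNA, so they could enter the test only through that group, had to differ, and add no support to these figures.

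Decorin showed the largest fitted change of the 7. Its 3 total RNA libraries read 16.6, 13.9 and 26.6 normalised read counts and its 3 polysomal libraries 1.95, 0.886 and 0.682. Every polysomal library lay below every total RNA library, by a ratio of means of 16.2, and the log2 fold change was -3.20 ± 0.32 (SE, limma adjusted p = 0.00174). These low values rest on 47, 11 and 16 reads, and adding 1 before the logarithm understates the fold: edgeR on the recovered reads gave -3.96. In the authors' deposited table the log2 fold change of Dcn was -3.99.

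Matrix Gla protein mRNA was abundant and also low in polysomes. Mgp read 867.8, 907 and 1006 in total RNA and 234, 265 and 80.2 in polysomal RNA. The groups did not overlap, polysomal replicate 3 was the lowest, and the log2 fold change was -2.43 ± 0.43 (SE, adjusted p = 0.00938). Without total RNA replicate 3 the adjusted p was 0.0623. Mgp is the shortest of these transcripts, and with the trend over gene length removed its log2 fold change was -3.18.

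Osteoglycin read 208, 241 and 167 in total RNA and 100.4, 32.0 and 67.8 in polysomal RNA. All polysomal libraries were lower, with polysomal replicate 2, which is rich in ribosomal RNA, the lowest. The log2 fold change of Ogn was -1.73 ± 0.39 (SE, adjusted p = 0.0211), and leaving out total RNA replicate 1, 2 or 3 raised the adjusted p to 0.0867, 0.0916 and 0.0795.

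The low members fell close to the detection floor. Asporin, a class I member that binds collagen and TGF-beta, read 3.65, 4.09 and 3.84 in total RNA and 0.788, 0 and 0.767 in polysomal RNA. Prelp, whose basic N-terminus binds heparan sulfate, read 3.43, 3.28 and 2.997 in total RNA and 0.498, 0 and 0.298 in polysomal RNA. Neither gene overlapped between fractions. The log2 fold changes were -1.73 ± 0.27 (SE, adjusted p = 0.00679) for Aspn and -1.76 ± 0.22 (SE, adjusted p = 0.00337) for Prelp. On the recovered reads edgeR gave -2.75 and -3.41, and a 0 in polysomal replicate 2 allows up to 0.242 normalised read counts. Without any 1 of the total RNA libraries neither gene entered the test.

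Biglycan and fibromodulin overlapped between the fractions. Bgn, the most abundant of the proteoglycan transcripts, read 1388, 1498 and 1665 in total RNA and 1248, 1048 and 1665 in polysomal RNA. Fmod, which steers collagen fibril assembly, read 35.8, 39.8 and 13.6 in total RNA and 25.1, 16.1 and 20.9 in polysomal RNA, and total RNA replicate 3 was its lowest library. The log2 fold changes were -0.22 ± 0.22 (SE, adjusted p = 0.474) and -0.39 ± 0.40 (SE, adjusted p = 0.495). The class I genes therefore ranged in fitted log2 fold change from -3.20 in Dcn to -0.22 in Bgn.

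**Figure D2:**
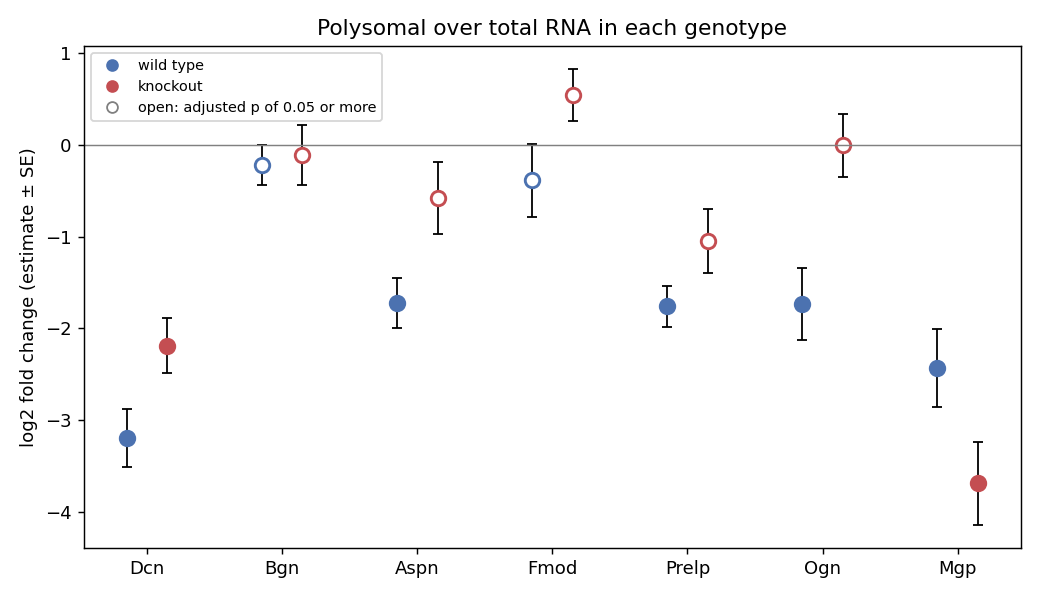
Polysomal over total RNA as a log2 fold change for each of the 7 genes in wild type and knockout, with the limma standard error as the error line; filled points passed an adjusted p of 0.05. The wild-type points of Dcn, Mgp, Prelp, Ogn and Aspn and the knockout points of Mgp and Dcn passed, all below 0.

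In knockout cells Mgp and Dcn were again lower in polysomal RNA and no other member passed. These were 2 of 7 tested members, beside a background of 1.85% of 12070 genes called lower and 0.911% called higher. The members' median log2 fold change was -0.58, against 0.04 over all genes. Mgp read 1599 and 3468 in the 2 total RNA libraries and 315, 129 and 147 in polysomal RNA. All polysomal libraries lay far below both total RNA libraries, and the total RNA libraries differed from each other too. Its log2 fold change was -3.69 ± 0.45 (SE, adjusted p = 0.0117), a 12.9-fold ratio of means, and the adjusted p was 0.0612 and 0.112 without total RNA replicate 1 or 2.

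Dcn read 10.02 and 8.70 in knockout total RNA and 0.681, 1.45 and 1.81 in polysomal RNA. The fractions did not overlap, and its log2 fold change was -2.19 ± 0.30 (SE, adjusted p = 0.0141). The adjusted p was 0.114 without either total RNA library and 0.0518 without polysomal replicate 3. In the authors' deposited table the log2 fold change of Dcn was -2.81 in the knockout and that of Mgp was -3.69.

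The other 5 members did not pass in the knockout. Ogn read 481 and 444 in total RNA and 326, 415 and 721 in polysomal RNA, which spans the total RNA values, and its log2 fold change was -0.01 ± 0.34 (SE, adjusted p = 0.993). Bgn read 1727 and 1497 in total RNA and 1180, 1367 and 2061 in polysomal RNA, with a log2 fold change of -0.11 ± 0.33 (SE, adjusted p = 0.878). Both genes, like Dcn, Aspn, Prelp and Fmod, had their highest knockout polysomal value in replicate 3, the polysomal library lowest in ribosomal RNA. Aspn read 6.92 and 5.91 in total RNA and 1.91, 4.53 and 6.54 in polysomal RNA and overlapped, with a log2 fold change of -0.58 ± 0.40 (SE, adjusted p = 0.419). Prelp read 4.81 and 6.43 in total RNA and 2.38, 1.11 and 3.49 in polysomal RNA. It did not overlap but missed the threshold at -1.05 ± 0.35 (SE, adjusted p = 0.135). Fmod read 50.7 and 47.8 in total RNA and 58.4, 63.8 and 102 in polysomal RNA. It was the member whose polysomal libraries were all above the total ones, with a log2 fold change of 0.55 ± 0.28 (SE, adjusted p = 0.289). With polysomal replicates 1 and 2, the libraries rich in ribosomal RNA, left out, the estimates turned positive for Ogn (0.64), Bgn (0.36) and Aspn (0.03). Those of Fmod and Prelp were then 1.03 and -0.55, and none of these 5 passed. Dcn (-1.88) and Mgp (-3.99) passed in that fit, which rests on 1 polysomal library.

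Whether polysomal over total RNA differed between the genotypes was tested directly, and no member passed limma's adjusted threshold. The test called 0 of 7 members and 0.265% of all 12474 genes in either direction; 3 members had an unadjusted p under 0.05, edgeR called 0 and DESeq2 called 1. Estimates were positive for 6 members, meaning a smaller polysomal deficit or a larger excess in the knockout. Ogn had the largest difference, 1.73 ± 0.58 on the log2 scale (SE, adjusted p = 0.148), and it passed in DESeq2 (adjusted p = 0.0491). Without the 3 polysomal libraries rich in ribosomal RNA, Ogn (1.93, adjusted p = 0.0214) and Aspn (1.48, adjusted p = 0.0333) passed in limma, with 1 polysomal library left for the knockout. In all 11 libraries the difference was 1.15 ± 0.51 for Aspn, 1.01 ± 0.46 for Dcn, 0.94 ± 0.54 for Fmod, 0.71 ± 0.42 for Prelp and 0.12 ± 0.37 for Bgn. Mgp had the opposite sign at -1.26 ± 0.70 (SE, adjusted p = 0.310), and -0.47 with the trend over gene length removed. The median over the 7 was 0.94, against 0.09 over all genes tested. The share of all genes with a positive estimate was not counted. Medians of the other lists described below, cell type markers aside, ran from -0.45 (4 other family genes) to 0.90 (14 growth factors and receptors). That of 11 collagens was 0.65, so a positive median was not particular to the members.

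Knockout and wild type were then compared within each fraction, with all libraries on 1 common scale because the authors had scaled the 2 tables separately. In polysomal RNA Ogn, Fmod, Aspn and Prelp were higher in the knockout. These 4 of 7 members stood beside a background of 4.82% of 12465 genes called higher and 3.5% called lower, and the members' median log2 fold change was 1.39, against 0.00 over all genes. The values of each library on the deposited scale are those given above. For the 4 genes that rose, every knockout polysomal library was above every wild-type one on the common scale. The share of all genes that separate like this was not counted, so nothing is read from it.

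Ogn rose 7.81-fold by the common-scale means, from 63.9 to 499, with a log2 fold change of 2.99 ± 0.36 (SE, adjusted p = 0.000504). Fmod rose 3.83-fold, from 20.0 to 76.6, with a log2 fold change of 1.86 ± 0.35 (SE, adjusted p = 0.00813). Both passed with the 6 polysomal libraries fitted alone, at adjusted p = 0.0139 and 0.0148. The rise of Aspn was 1.81 ± 0.33 on the log2 scale (SE, adjusted p = 0.00712) and that of Prelp 1.39 ± 0.28 (SE, adjusted p = 0.0107). Their wild-type polysomal values were all below 1, so the fold depends on the added 1, and edgeR gave 3.04 and 3.07. With the polysomal libraries alone Aspn and Prelp did not pass (adjusted p = 0.0651 and 0.0814), and Prelp did not pass without knockout polysomal replicate 3 (adjusted p = 0.0566). Bgn (0.29 ± 0.24), Mgp (0.17 ± 0.48) and Dcn (0.15 ± 0.30) overlapped between genotypes, with adjusted p of 0.517, 0.876 and 0.814.

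In total RNA the same comparison, with the spread estimated over all 4 groups, called 0 of the 7 members, beside a background of 4.71% of 12465 genes called higher and 5.78% called lower. An unadjusted p under 0.05 was reached by 5 members, edgeR called 0, and DESeq2 called Ogn and Mgp. The 2 knockout libraries lay above all 3 wild-type libraries for Mgp, Ogn, Fmod, Prelp and Aspn, and below them for Dcn. The shares of all genes that separate like this or reach that unadjusted p were not counted, so nothing is read from either. The log2 fold changes were 1.47 ± 0.53 for Mgp (SE, adjusted p = 0.0966), 1.31 ± 0.41 for Ogn (SE, adjusted p = 0.0619) and 0.96 ± 0.39 for Fmod (SE, adjusted p = 0.131). Prelp (0.74 ± 0.31) and Aspn (0.71 ± 0.37) had smaller estimates, and Bgn overlapped at 0.21 ± 0.26. Decorin was the member with a negative estimate, -0.79 ± 0.34 (SE, adjusted p = 0.146). The polysomal libraries also enter the spread behind this test. When the 5 total RNA libraries were fitted alone, a setting chosen after seeing the data, Ogn, Mgp, Aspn and Prelp passed as higher (adjusted p = 0.00177, 0.00824, 0.0239 and 0.0278) and Dcn as lower (adjusted p = 0.0474). Without the 3 polysomal libraries rich in ribosomal RNA the same 4 passed as higher, at adjusted p = 0.00119, 0.0171, 0.0189 and 0.0238, and Dcn did not pass (adjusted p = 0.0600). Both of these fits called far more genes in all than the main fit, with counts given below, so nothing is read from the number of members passing. The Mgp estimate was 0.87 with the trend over gene length removed, and its 2 knockout libraries differed from each other more than any wild-type pair.

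**Figure D3:**
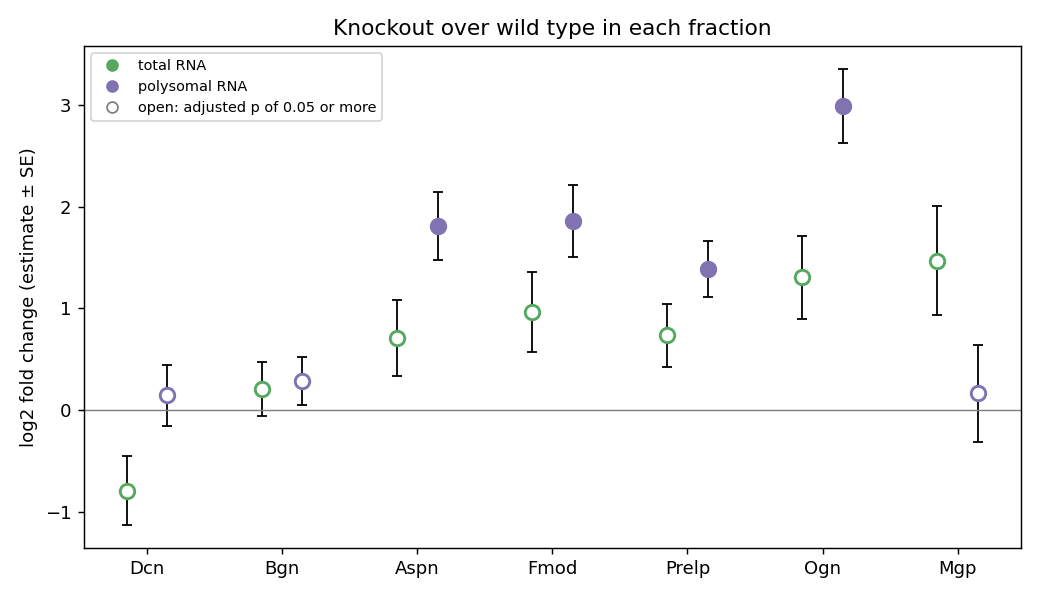
Log2 fold change of knockout over wild type on the common scale, in total and in polysomal RNA, with the limma standard error as the error line; filled points passed an adjusted p of 0.05. Ogn, Fmod, Aspn and Prelp passed in polysomal RNA, Bgn lies near 0 in both fractions, and Dcn is below 0 in total RNA.

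The comparisons share libraries, so a member's values in them are not independent. Set side by side, Ogn had log2 fold changes of 1.31 between genotypes in total RNA and 2.99 in polysomal RNA, and Mgp had 1.47 and 0.17.

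Among the 11 other family genes, 3 to 4 were tested in each comparison. Omd, whose model lies between Aspn and Ogn and also within Cenpp, read 0.687 to 1.18 in wild-type total RNA and 4.42 and 6.96 in knockout total RNA. In polysomal RNA it read 0.256 to 0.806 in the wild type and 1.77 to 2.07 in the knockout. The genotypes did not overlap, but Omd could enter the test only through the knockout libraries and had to differ, so its calls between genotypes are not used. No other family gene passed in limma in any comparison. For polysomal over total RNA, 1 of 3 in the wild type and 2 of 4 in the knockout had an unadjusted p under 0.05, edgeR called 0 and DESeq2 called 1 in each genotype. Kera and Epyc, which lie beyond Lum, were listed in neither table.

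Of 12 other proteoglycan core proteins tested, 7 were lower in wild-type polysomal RNA, beside 13.8% of all genes called lower, with a median of -1.002. These 7 included Hspg2 (perlecan of basement membranes, -2.41), Vcan (versican, -2.38), Cspg4 (the NG2 proteoglycan, -1.80) and Agrn (agrin, which clusters acetylcholine receptors, -1.58). In the knockout 3 of 11 were lower, beside 1.85% of all genes called lower: Vcan (-1.85), Hspg2 (-1.57) and Agrn (-1.37). Of the collagens that small leucine-rich proteoglycans bind, 7 of 11 were lower in wild-type polysomal RNA (median -1.21) and 3 of 11 in the knockout (median -0.90). Col12a1 had -3.43 and -1.70, and Col3a1 -2.27 and -1.48, in the respective genotypes. In each genotype the other collagens, the type I collagen genes among them, did not pass. Summed markers of differentiating muscle were also lower in polysomal RNA, at 355 to 908 in wild-type total RNA against 24.5 to 38.2 in wild-type polysomal RNA, and their part in these results was not tested.

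The enzymes that build the sugar chains were counted next. Of 19 tested genes for the linker and for chondroitin and dermatan sulfate, 3 were lower in wild-type polysomal RNA, a share near the 13.8% of all genes called lower. Among them were the sulfotransferases Chst15 (-1.81) and Chst3 (-0.76). In the knockout limma called 0 of the 19, with 8 at an unadjusted p under 0.05, 0 in edgeR and 4 in DESeq2. Between genotypes in total RNA, the sulfotransferase Chst7 (2.18) and B3gat3 (0.96), which adds the last linker sugar, were higher and Chst3 (-1.72) lower. In polysomal RNA Chst15 (1.73) and Chst7 (1.43) were higher. Of all genes, 4.71% were called higher and 5.78% lower between genotypes in total RNA, and 4.82% higher in polysomal RNA. Of 7 keratan sulfate genes, Chst2 was higher in wild-type polysomal RNA (1.201) and St3gal1 lower in knockout total RNA (-0.95). The respective shares of all genes were 8.89% and 5.78%.

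For Mgp, the modifying enzymes were followed. Ggcx, the vitamin K-dependent carboxylase, was lower in wild-type polysomal RNA (-0.88), as was Fam20c (-0.67), a kinase of secreted proteins. These were 2 of 9 tested genes, beside 13.8% of all genes called lower. As edgeR called 1 lower and DESeq2 called 3, nothing is read from the count. Nqo1, a quinone reductase able to reduce vitamin K, was higher in the knockout in total RNA (2.61) and in polysomal RNA (0.93), and lower in knockout polysomal than in knockout total RNA (-1.83).

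**Figure D4:**
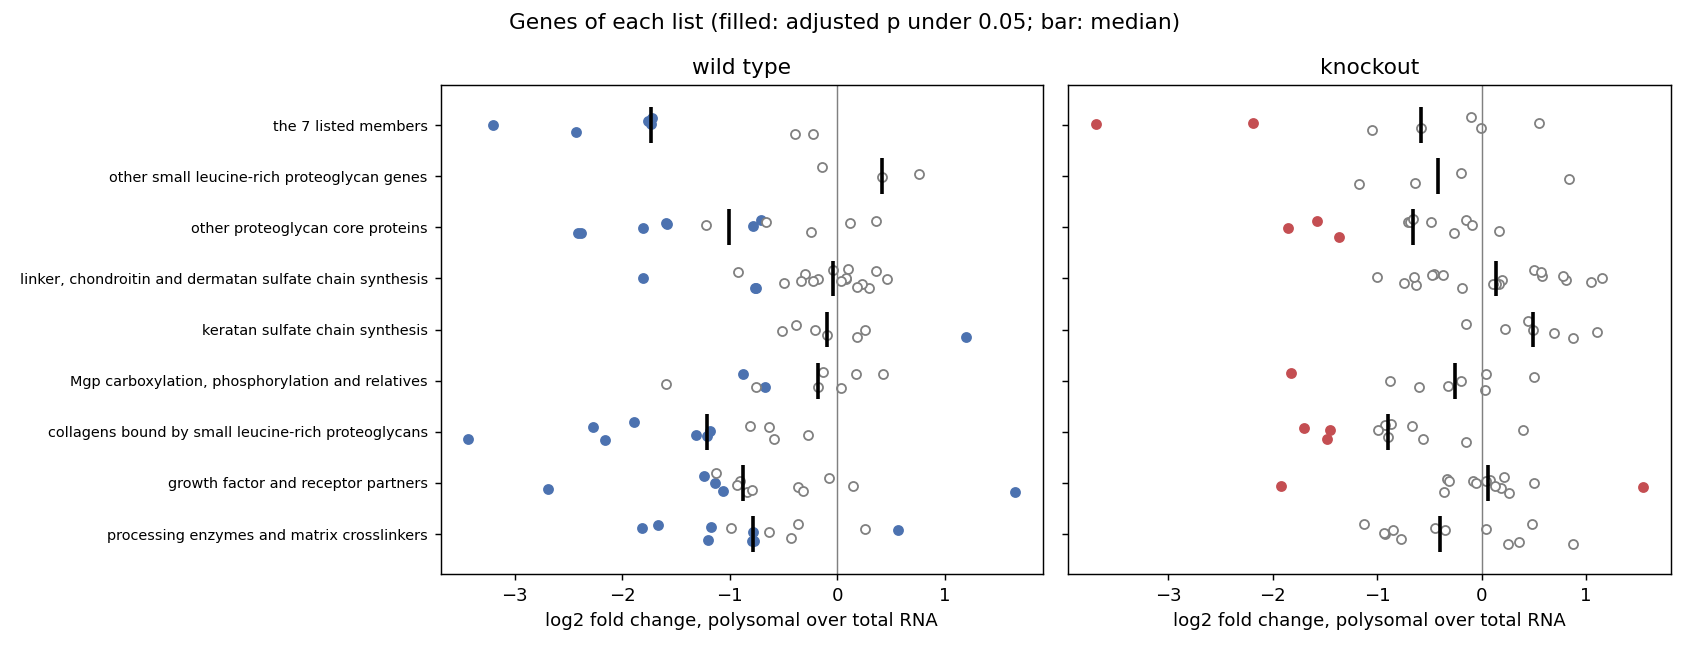
Polysomal over total RNA as a log2 fold change (horizontal axis) for each list (rows) in wild type and knockout, with 1 point per tested gene, filled where the adjusted p was under 0.05, and a bar at the list's median. The members' medians are -1.73 and -0.58, and those of the collagens -1.21 and -0.90.

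Across the 11 libraries, on the common log2 scale, the genes most like each member were listed by Pearson r as a description, since all points share group, depth and scaling. Car13 (0.989), Maf (0.980) and Serpinb6b (0.979) were most like Ogn. For Dcn they were Anxa6 (0.988), Flii (0.985) and Il33 (0.981), and for Mgp Hdgfrp2 (0.980), Alas1 (0.975) and Adora2b (0.970). Aspn had Acad11 (0.988), Fbxo32 (0.983) and Fto (0.979), and Prelp had Lgals9 (0.980), Il1rn (0.973) and Lzts1 (0.972). Fmod had Trp53inp1 (0.948), Slc1a3 (0.942) and Best1 (0.924), and Bgn had the lowest values with Rnf13 (0.933), Parva (0.930) and Large (0.917). Between members, r was highest for Ogn with Aspn (0.926), Aspn with Prelp (0.896) and Fmod with Ogn (0.866). Mgp was most like Dcn (0.800), and Fmod and Dcn had r = -0.149.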

How the data were processed

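RNA sequencing libraries of total and polysomal RNA were analysed from the authors' 2 complete tables, 1 per genotype. The deposited signal is a normalised read count: dividing by the smallest step of its column gave whole reads for 100% of values (tolerance 0.001). The authors' name for it is CPM, but columns summed to 847338 to 1215073. The submitters' processing notes name STAR, HTSeq, edgeR and mm10, and versions are not given in the sources used here. The deposited tables also hold the authors' log2 fold changes and FDR (an adjusted p-value). Gene lengths came from the same tables.

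Genes that reached 1 in 3 or more fitted libraries were tested by limma 3.58.1 (R 4.3.3) with a mean-variance trend on log2(value + 1), so folds of low genes are understated, with Benjamini-Hochberg adjustment over all genes and a threshold of 0.05. Knockout and wild type were compared after median-of-ratios scaling of the recovered reads, on genes listed for both genotypes (12590). Alternatives were a pseudocount of 0.25, no filter, edgeR 4.0.16, DESeq2 1.42.0, other scalings, removal of the length trend, a replicate block, each library left out, and, chosen after seeing the data, fits without the ribosomal RNA-rich libraries or within 1 fraction. The code was tested on simulated data. Text names the members, Ddx27, up to 4 genes with the lowest adjusted p per list, and the 3 genes most like each member; cell type markers and the neighbour Cenpp were named after their values were seen. Members and lists were chosen with earlier results of these data known.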

Additional observations from a re-analysis of the deposited data

How the results depend on the processing

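Over all alternative settings, including those chosen after seeing the data, 16 of 561 member values changed sign, none of them a called one. In wild-type cells the number of members lower in polysomal RNA was 1 to 5 when each library was left out (5 with all), and genes called numbered 2806 with limma, 4369 with DESeq2 and 461 to 5777 with a library left out. In the knockout the members called lower were 0 to 2, and all genes called were 333, against 1288 with DESeq2, 1460 with the length trend removed and 5 to 1622 with a library left out. For the difference between genotypes, members called higher were 0, with 1 in DESeq2 and 2 without the ribosomal RNA-rich libraries. All genes called there were 33, with 943 in DESeq2, 126 with the length trend removed, 1109 without the ribosomal RNA-rich libraries and 0 to 355 with a library left out. In total RNA, members higher in the knockout were 0, with 2 in DESeq2, 4 without the ribosomal RNA-rich libraries, 4 with total RNA libraries alone (and 1 lower) and 0 to 2 with a library left out. All genes called were 1308, against 2464, 4660, 4417 and 258 to 2977 in that order. In polysomal RNA 4 members were higher, with 2 when polysomal libraries were fitted alone, and 1037 genes were called, against 1795 with DESeq2, 313 with polysomal libraries alone and 419 to 1645 with a library left out. The causes were not tested. Where leaving out libraries left 1 in a group, it was assumed to vary like the others.

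Same-numbered wild-type libraries did not clearly deviate together (r = 0.21, -0.22 and -0.07), and differently numbered ones had r from -0.31 to 0.26. With so few libraries this cannot show whether the numbers pair samples, so pairing remains unknown. A replicate block called 5 members lower and 1946 genes in all. Columns of the knockout carry no label numbers, so no block was fitted there. Depth limits Aspn, Prelp and polysomal Dcn, whose lowest libraries held 0 to 10 reads.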

Other observations

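Of 13 tested matrix crosslinkers and proteases, 4 were lower in knockout total RNA and 4 in knockout polysomal RNA, beside 5.78% and 3.5% of all genes called lower, and the other 9 in each fraction did not pass. The lower genes included Loxl2, a lysyl oxidase-like crosslinker (log2 fold change -4.24 in total and -3.04 in polysomal RNA), and Mmp2, a gelatinase (-3.58 and -3.20). Loxl2 read 0 and 0.324 in knockout total RNA and 0.257 to 1.09 in knockout polysomal RNA. It could enter the test only through wild-type libraries, its folds depend on the added 1, and it adds no support to these counts. Mmp2 read 1.95 and 2.43 in knockout total RNA and 0.428 to 1.36 in knockout polysomal RNA, so its folds also depend on the added 1. Of 11 tested collagens, 5 were lower in knockout total RNA, among them Col6a2 (-2.57), Col6a1 (-2.14), Col5a3 (-2.00) and Col6a3 (-1.53). In polysomal RNA Col5a3 (-2.45), Col6a2 (-1.97) and Col1a1 (-1.16) were among 4 lower collagens, and Col14a1 (1.97) was 1 of 2 that were higher, beside 4.82% of all genes called higher.

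Of 14 tested growth factors and receptors that bind these proteoglycans, 4 were lower and 1 was higher in wild-type polysomal RNA. Of all genes, 13.8% and 8.89% were called so. In the knockout 1 was lower and 1 (Wisp1, 1.54) higher, beside 1.85% and 0.911% of all genes. Lrp1, an endocytic receptor for decorin, was lower in polysomal RNA of both genotypes (-2.69 in wild type, -1.92 in knockout). Ctgf, a matricellular growth factor that decorin binds, was higher in wild-type polysomal RNA (1.66) and was the gene of this list that passed the test of the difference between genotypes (-1.57, limma adjusted p = 0.0344). In knockout against wild-type polysomal RNA, 2 of the 14 were higher and 1 was lower, beside 4.82% and 3.5% of all genes. Ctgf was lower (-1.65), while Tlr4 (1.19) and Tlr2 (0.89), the receptors that soluble biglycan engages, were higher. Between genotypes in total RNA, Tlr2 was also higher in the knockout (0.92, limma adjusted p = 0.0364), while Tlr4 did not pass (-0.34).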
